A study of Mus musculus with 34 samples.

Results

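The neocortex of young male mice was compared 1 week after injections of nicotine or saline. The comparison rests on 12 arrays, 6 from nicotine mice and 6 from saline mice, out of 34 arrays in the series. They were chosen by their labels alone, as the arrays labelled with nicotine or with saline and neocortex. Nicotine at 10 mg/kg was given into the peritoneum on postnatal day 23, as 3 injections spaced 2 h apart, and saline mice were injected with the vehicle alone. Mice that survived were killed on postnatal day 30, so the arrays describe survivors, and the labels give no strain, genotype or litter. Other groups entered the fits: kainate neocortex (5 arrays, 15 mg/kg on the same schedule) shared the estimate of the spread, and the hippocampi of 6 nicotine, 5 kainate and 6 saline mice served for a comparison of regions. Each array is labelled as a biological replicate from 1 mouse, and 12 µg of total RNA from bulk tissue was labelled for it.

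Nicotine opens nicotinic acetylcholine receptors, cation channels built from alpha and beta subunits that acetylcholine opens in normal signalling. In the neocortex these channels sit on interneurons, on pyramidal cells of certain layers and on the terminals of fibres arriving from the thalamus and the basal forebrain. Their opening depolarises the cell, and the channels made of Chrna7 also pass calcium. High doses provoke seizures in rodents. The question put to these arrays is which transcripts still differed a week after such injections, and how large a difference the 12 arrays leave room for.

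The values are MAS5 signals, intensities on a linear scale that the authors set to a common trimmed mean on each array. The median signal lay between 382.4 and 417.8 on the nicotine arrays and between 376.0 and 422.1 on the saline arrays. Pairs of neocortical arrays correlated at 0.919 to 0.968 on the log2 scale, and 0 pairs held identical values. A group of 3 arrays stood apart on the first principal component of the 17 neocortical arrays, which held 16.8% of the variance: nicotine replicate 6 at −21.6, kainate replicate 5 at −22.6 and saline replicate 6 at −35.8, against −11.1 to 16.2 for the other 14. Their deviations from their group means correlated at 0.288 to 0.309 with each other. What sets them apart was not tested, and main counts are given with and without them.

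Regional markers followed the labels. Tbr1, a transcription factor of cortical projection neurons, averaged 6769 ± 1251 in nicotine neocortex and 5671 ± 825 in saline neocortex, against 2078 ± 504 in saline hippocampus (SD, n = 6 each). Zbtb20, a transcription factor of hippocampal neurons, averaged 561 ± 93.0 in nicotine neocortex and 588 ± 115 in saline neocortex, against 2609 ± 275 in saline hippocampus. Ttr, the transthyretin of the choroid plexus, varied within both neocortical groups, at 108 to 1791 on the nicotine arrays and 186 to 1720 on the saline arrays. Hba-a1, a haemoglobin chain of red blood cells, lay at 30633 ± 6706 in nicotine neocortex and 32489 ± 8947 in saline neocortex.

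No transcript passed the test between nicotine and saline neocortex. Of 8695 probe sets tested, 0 (0.00%) had an adjusted p under 0.05 in limma with Benjamini-Hochberg adjustment, where 835 (9.60%) had an unadjusted p under 0.05. Of those 835, 435 (5.00% of all tested) had a higher mean with nicotine and 400 (4.60%) a lower one. The smallest adjusted p in limma was 0.2597. On 27 probe sets (0.311%) all 6 nicotine arrays lay above all 6 saline arrays, and on 22 (0.253%) all lay below, together 49 (0.564%). Without the 3 arrays that stood apart the count of calls was again 0, with 1109 probe sets at an unadjusted p under 0.05. Fold changes are differences of mean log2(signal + 16), nicotine minus saline, and understate the change of dim genes. Their middle 95% ran from −0.47 to 0.54 with a median of 0.01.

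In the same fit, kainate neocortex gave 1 call against saline (0.0115% of 8695), with 484 probe sets at an unadjusted p under 0.05 (5.57%). The called gene was Gfap, the intermediate filament of astrocytes, at 3594 ± 914 in kainate neocortex (SD, n = 5) and 1675 ± 270 in saline neocortex (n = 6), a log2 fold change of 1.07 ± 0.14 SE (limma adjusted p = 0.00139). In nicotine neocortex Gfap lay at 1702 ± 128 (n = 6), with a log2 fold change of 0.03 ± 0.13 SE against the same saline arrays (adjusted p = 0.951). Its 6 nicotine values lay between 1490 and 1829, inside the saline range of 1332 to 2083.

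**Figure D1:**
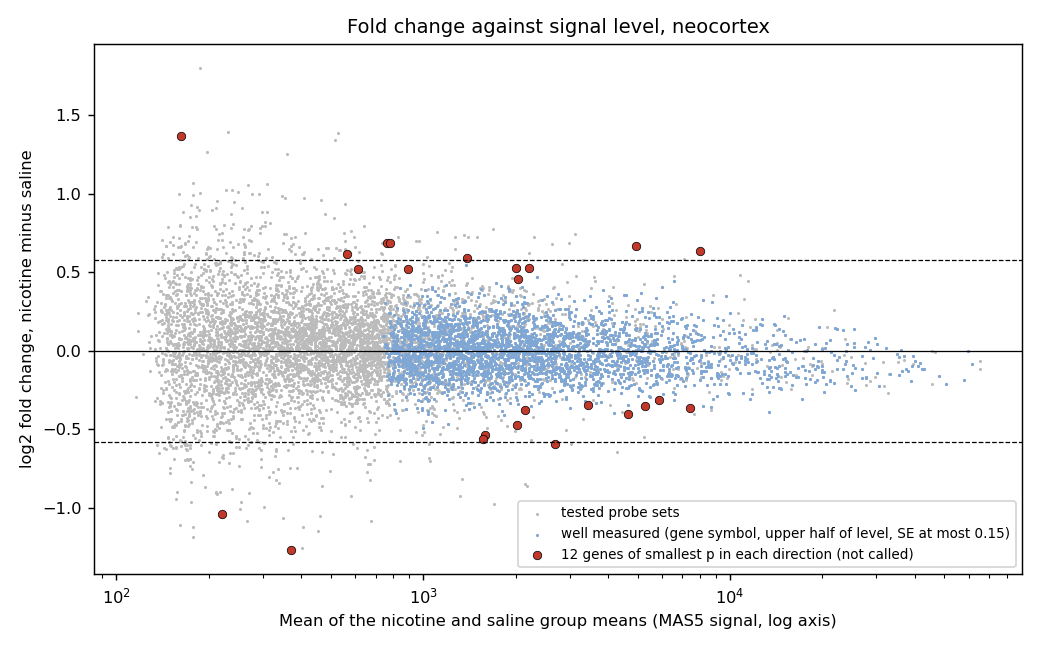
Log2 fold change (nicotine minus saline, vertical axis) of each tested probe set against the mean of its nicotine and saline signals (horizontal log axis), 6 arrays a group, with dashed lines at ±0.58 (1.5-fold). The spread of the points narrows toward bright probe sets, and the red genes, 12 of smallest p in each direction, are not called.

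Because nothing passed, the size of change that the arrays leave room for was measured for each gene. A bound is the far end of the 95% interval of the log2 fold change, taken without sign. A gene was counted as well measured if its probe set named 1 gene, lay in the upper 50% of the tested levels (a signal of about 770 or more) and had an SE of at most 0.15. The limit on the SE caps the width of the interval by itself, so these shares describe precision and are not evidence that a gene did not change. Of 2892 well measured genes, 703 (24.3%) had a bound within 0.26 (1.2-fold), 2801 (96.9%) within 0.58 (1.5-fold) and 2892 (100%) within 1 (2-fold). Over all 8695 tested probe sets, with no limit on the SE, the shares were 9.91%, 63.3% and 89.2%. Intervals that hold for all 8695 at once are wider: by them 442 of the well measured genes (15.3%) stayed within 0.58 and 2579 (89.2%) within 1, which leaves 313 that did not. Without the 3 arrays that stood apart, 2767 of 2934 well measured genes had a bound within 0.58.

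Precision followed the level. The 6435 genes were split by level into 4 groups of equal size. In the dimmest, with mean signals of 127.8 to 387, the median SE was 0.29 and 18.8% had a bound within 0.58. The next had a median SE of 0.16 and 68.0% within 0.58, and the third 0.12 and 86.3%. In the brightest, with signals above 1931, the median SE was 0.10 and 93.5% had such a bound. In the dimmest group most genes were therefore not bounded within 1.5-fold. The direction of the fold changes followed the level as well. Of 203 genes with a mean signal of 10000 or more, 64 had a positive fold change, the median was −0.07, and at an unadjusted p under 0.05, 27 (13.3%) were lower and 4 (1.97%) higher. In the dimmest of the 4 groups the counts at that level were 64 higher and 34 lower of 1609, with a median of 0.03. What makes the direction follow the level was not tested.

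**Figure D2:**
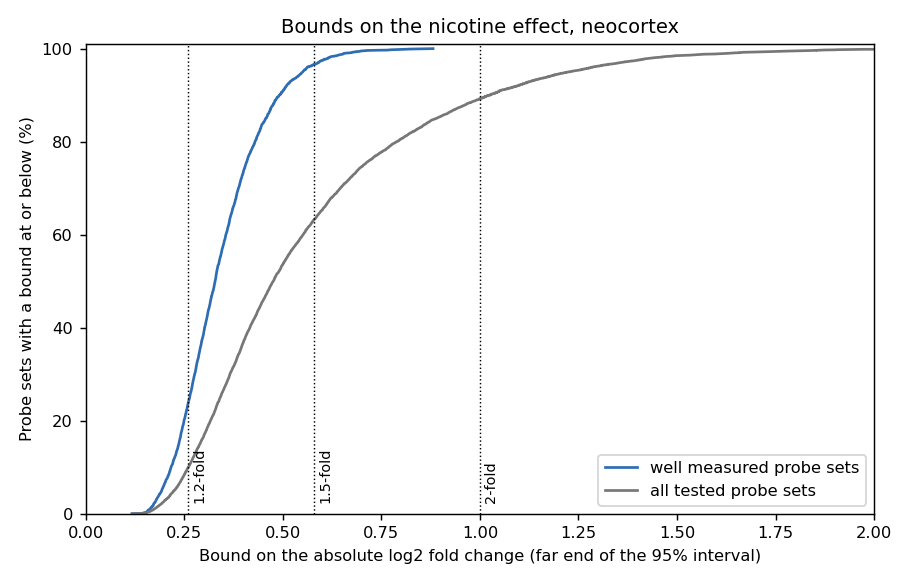
Share of probe sets (vertical axis, percent) whose bound on the absolute log2 fold change lies at or below the value on the horizontal axis, for well measured probe sets and for all tested probe sets, 6 nicotine and 6 saline arrays. The curve of the well measured lies left of that of all tested, in part by the limit on their SE.

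The 12 tightest bounds lay between 0.12 and 0.15. Atp5a1, the alpha subunit of the mitochondrial ATP synthase, had a lowest, median and highest signal of 17434, 17816 and 18353 on the nicotine arrays, against 16819, 17950.3 and 18568 on the saline arrays. Its log2 fold change was 0.01, with a bound of 0.12. Stmn1, the microtubule-destabilising protein stathmin, had 22558, 24001 and 25004 with nicotine and 21481, 23835 and 26491 with saline, and a bound of 0.13. The groups overlapped for both genes. The other genes among the 12 tightest were Cx3cl1, the neuronal chemokine fractalkine, with a bound of 0.14, Ralgds (0.14), Lpgat1 (0.15), Emc10 (0.15) and Gnai2, an inhibitory G-protein subunit (0.15). Cs, the citrate synthase (0.15), Actg1, a cytoplasmic actin (0.15), Fth1, the ferritin heavy chain (0.15), Fkbp8 (0.15) and Srrm1, a splicing factor (0.15), completed them. A bound holds for the brightest probe set of a gene only. The genes named for a tight bound, here or within a list, had 38 other tested probe sets, and the estimates of 9 of these lay beyond the printed bound, 3 of them at an unadjusted p under 0.05 (of Gria2, Ndrg2 and Vamp2).

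At the other end, the largest bound of a well measured gene was 0.88, for Mcrs1, a nuclear and centrosomal protein. It averaged 1664 ± 260.5 with nicotine and 1116 ± 272 with saline (SD, n = 6 each), a log2 fold change of 0.59 with an interval of 0.30 to 0.88. Among the other 90 well measured genes that were not bounded within 0.58 were Ppp2r5a, a regulatory subunit of protein phosphatase 2A (0.47, bound 0.77), Larp4b, an RNA-binding protein (−0.45, bound 0.73), and Gnaz, a G-protein subunit of neurons (−0.41, bound 0.71). The largest absolute log2 fold change of a well measured gene was 0.59.

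The genes of smallest p were read as values only, since each had an adjusted p between 0.2597 and 0.337 in limma. They were the 12 of smallest p in each direction, and on 11 of the 24 the arrays did not overlap, which is not independent of the small p. Kainate neocortex against the same saline arrays had the same sign for all 12 of the higher genes and 11 of the 12 lower, all but Irf1. Both comparisons share the saline arrays, and the share of all tested probe sets with the same sign was not counted. The part of the saline arrays in these differences was not tested. Crb3, an apical polarity protein of epithelia, had a lowest, median and highest signal of 749.7, 921 and 1168 on the nicotine arrays, against 419, 579 and 728 on the saline arrays. Its log2 fold change was 0.68 ± 0.15 SE. Sphk2, a kinase that makes sphingosine 1-phosphate, had 628, 716 and 875 with nicotine and 444, 479 and 573 with saline (0.52 ± 0.12). For both genes every nicotine array lay above every saline array. A second, slightly dimmer probe set of Sphk2 had the opposite sign, at 529 ± 142 with nicotine and 597 ± 114 with saline (−0.19 ± 0.20 SE), so the probe sets of this gene disagree. Dhx36, a helicase that unwinds G-quadruplexes, had 568, 667 and 885 with nicotine and 348, 449 and 487 with saline (0.62 ± 0.14). Serpinh1, the collagen chaperone HSP47, had 946, 1054 and 1153 and 578, 776 and 853 in the same order (0.52 ± 0.12). The nicotine values again lay wholly above for these genes, as they did for Srsf6, a splicing factor (0.53), Dbnl, an actin-binding adaptor (0.53), and Entpd5, a nucleoside diphosphatase of the endoplasmic reticulum (1.37). Entpd5 was dim, at 243 ± 105 with nicotine and 81.3 ± 29.4 with saline (SD, n = 6 each).

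The groups overlapped for the other 5 on the higher side. Rhob, a small GTPase of endosomes and the cytoskeleton, was bright, at 6359, 9990.5 and 11366 (lowest, median and highest) with nicotine and 4480.2, 6417 and 8386 with saline, and its lowest nicotine value came from replicate 6. Its log2 fold change was 0.64 with an interval of 0.31 to 0.96. Itgav, the alpha V integrin, had 3817, 6586 and 7002 with nicotine and 3142, 3499 and 5635 with saline. Here too nicotine replicate 6 was the lowest, and saline replicate 2 was the highest of its group. Itgav had a log2 fold change of 0.67 by this probe set, while dimmer ones had 0.32 ± 0.21 SE and −0.03 ± 0.68 SE. Helb, a DNA helicase (0.69), Mcrs1 (0.59) and Nudt19, an enzyme that cleaves coenzyme A (0.46), made up the rest.

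On the lower side, Yipf4, a membrane protein of the Golgi, had a lowest, median and highest signal of 1798, 2131 and 2468 with nicotine, against 3022, 3092 and 3655 with saline. All nicotine values lay below all saline values, and the log2 fold change was −0.59 ± 0.13 SE. Nrep, the neuronal protein P311, had 4040.5, 4582 and 5311 with nicotine and 5465, 5917 and 6452 with saline (−0.35). B4galt2, a galactosyltransferase, had 3604, 3909 and 4446 with nicotine and 4496, 5292 and 6358 with saline (−0.40). Neither gene overlapped between the groups, and nor did Gtf2i, a general transcription factor (−0.31, 5243 ± 399 with nicotine and 6515 ± 581 with saline).

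Dnajc5, the cysteine string protein that keeps SNARE proteins folded, had 1613, 1876 and 2135 with nicotine and 2098, 2361 and 2809 with saline (−0.38). Syt11, a synaptotagmin that does not bind calcium, had 5852, 6138 and 8069 and 7459.8, 8287 and 9179.7 in the same order (−0.36). Both overlapped between the groups, and the median of the synaptic vesicle list as a whole was 0.06. Fxyd7, a regulator of the sodium pump in brain, had −0.35, and the mitochondrial genes Mrpl41 and Acot13 had −0.53 and −0.56. The phosphatase Acp1 had −0.47, while its dimmer probe sets had −0.38, −0.17, 0.03 and 0.0057. The largest folds on this side were of dim genes: Pax4, a transcription factor of pancreatic islets, averaged 215 ± 117 with nicotine and 525 ± 218 with saline (−1.27), and Irf1, an interferon regulatory factor, 145 ± 90.5 and 298 ± 105 in the same order (−1.04).

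The smallest p of any probe set (4.17e-05 in limma before adjustment, adjusted p = 0.2597, log2 fold change 1.80 ± 0.35 SE) belonged to the dimmer probe set of Eif3e, a subunit of translation initiation factor 3. It read 380.5, 279, 218, 180.5, 394 and 324 on the nicotine arrays and 166, 47, 77.1, 43.2, 54.9 and 77.9 on the saline arrays, so the groups did not overlap. The brighter probe set of the same gene read 404, 437, 414, 367, 431 and 289 with nicotine and 163, 477, 326, 269, 296 and 211 with saline, and its log2 fold change was 0.47 ± 0.22 SE. There the groups overlapped, so the probe sets agree in sign and differ in size. This probe set was singled out after its values were seen.

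**Figure D3:**
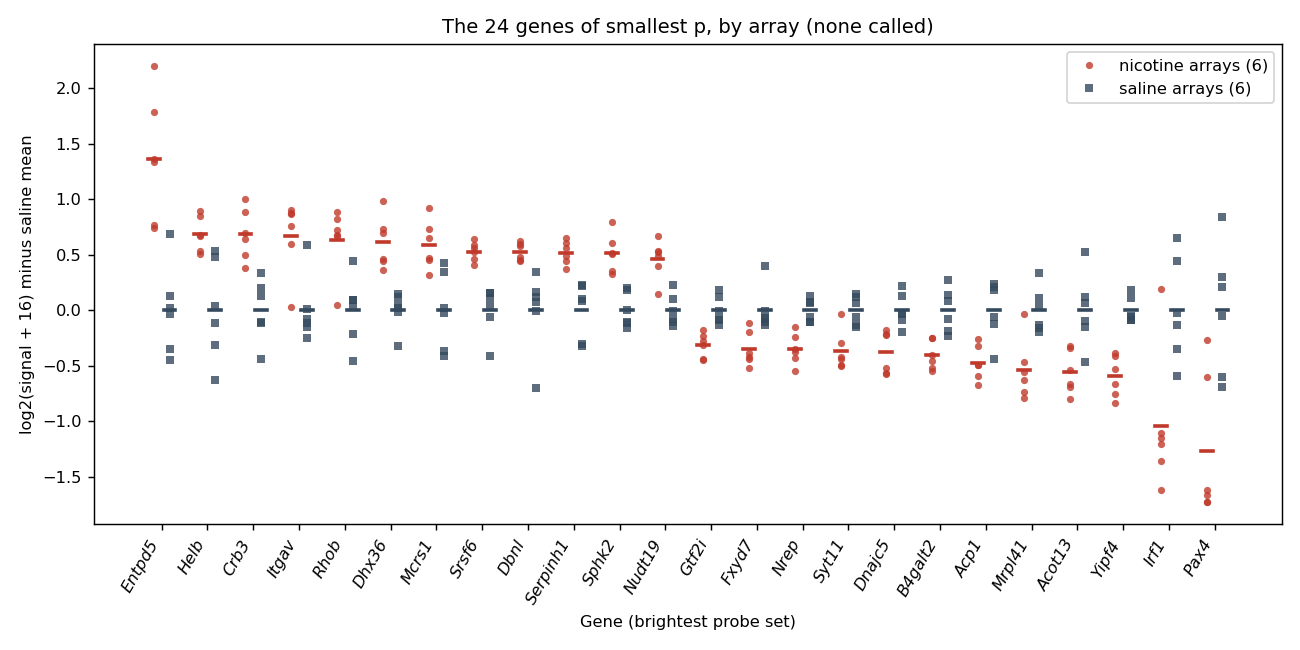
Log2(signal + 16) of the 24 genes of smallest p on each of 6 nicotine arrays (red circles) and 6 saline arrays (blue squares), less the saline mean of the gene, with bars at the group means. The genes run from the highest fold change, Entpd5 at 1.37, to the lowest, Pax4 at −1.27, and 11 of the 24 do not overlap between the groups.

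The receptors that nicotine binds were poorly measured. The array carried 8 of 16 nicotinic subunits, 4 of them passed the filter on level, and 0 were well measured. Chrna7, the subunit of the homomeric calcium-permeable receptor, had a lowest, median and highest signal of 432, 620.2 and 697 on the nicotine arrays, against 220, 696 and 971 on the saline arrays. Its log2 fold change of 0.17 had an interval of −0.48 to 0.82. The nicotine values lay inside the saline range, and the nicotine median was the lower although the mean log2 value was the higher. Chrna6, a subunit of dopaminergic terminals, had 0.17 (−0.70 to 1.04), and the muscle subunits Chrne and Chrnd had −0.04 (−0.78 to 0.71) and 0.07 (−0.93 to 1.07). Chrnb2, the beta subunit of the main high-affinity receptor of the brain, lay below the filter, at 80.0, 112 and 154 with nicotine and 83.8, 109 and 204 with saline, and was not tested. Chrna1, Chrnb1 and Chrng, subunits of the muscle receptor, lay below it too. A 1.5-fold difference either way lies inside the interval of Chrna6, Chrnd and Chrne, and a higher one inside that of Chrna7.

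Other cholinergic genes were bounded better. Ache, the esterase that ends the signal, had 2051, 2770.4 and 3026 (lowest, median and highest) with nicotine and 1711, 2489 and 3373 with saline, with a bound of 0.37. Chrm1, the main muscarinic receptor of the cortex, had 1377, 1599.8 and 2059 with nicotine and 1158, 1545 and 2255 with saline and a bound of 0.31. Both genes overlapped between the groups. Ly6h, a membrane protein that holds back nicotinic receptors, had 6339.8, 7349.9 and 9212 with nicotine and 7648, 9588 and 12880.4 with saline, and a log2 fold change of −0.36 (−0.62 to −0.10). The upper part of its nicotine range overlapped the saline values. Ly6h was the only one of 5 tested members of the cholinergic list with an unadjusted p under 0.05.

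Ionotropic glutamate receptors, the channels of fast excitation, were on the array with 12 of 16 members, and all 12 were tested. Of these, 0 had an unadjusted p under 0.05, 4 had a positive fold change, and the median was −0.09, against 0.01 for all genes. The 7 well measured were bounded within 0.58. Gria2, the subunit that keeps AMPA receptors closed to calcium, had 19395, 21116 and 25618 (lowest, median and highest) with nicotine and 19471, 21347 and 26088 with saline, and a bound of 0.21. A dimmer probe set of Gria2 read 2260 ± 447 with nicotine and 1629 ± 295 with saline (SD, n = 6 each). Its log2 fold change was 0.46 ± 0.17 SE (adjusted p = 0.408 in limma). Another dimmer probe set of Gria2 had 0.21 ± 0.12 SE, also positive, so the probe sets of this gene differ. Gria1 had a fold change of 0.12 (−0.08 to 0.31) and Gria3 of 0.11 (−0.13 to 0.35). Among kainate receptor subunits, Grik5 had 0.04 (−0.15 to 0.24), Grik2 −0.10 (−0.39 to 0.19) and Grik1 −0.07 (−0.71 to 0.57). Of the NMDA receptor subunits, Grin2b had −0.15 (−0.37 to 0.07), Grin2c −0.18 (−0.47 to 0.11), Grin2a −0.16 (−0.77 to 0.46) and Grin2d 0.48 (−0.28 to 1.24). Gria4 and the delta receptor subunit Grid1 had −0.29 (−0.83 to 0.26) and −0.21 (−0.49 to 0.06). Only 4 metabotropic glutamate genes were tested, none of them well measured, with Grm8 the highest at 0.29 and the scaffold Homer2 the lowest at −0.24.

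**Figure D4:**
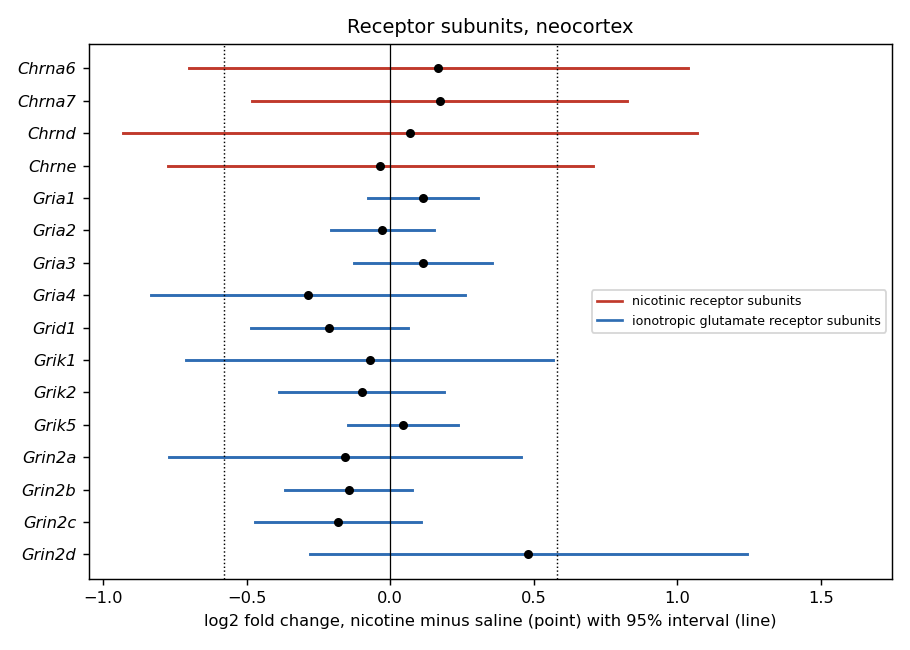
Log2 fold change (nicotine minus saline, point) with its 95% interval (line) for each tested nicotinic subunit (red) and ionotropic glutamate subunit (blue), 6 arrays a group, with dotted lines at ±0.58. The 4 nicotinic intervals all run past 0.58, whereas those of Gria1, Gria2, Gria3, Grid1, Grik2, Grik5, Grin2b and Grin2c stay inside.

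In all, 41 gene lists with 866 distinct members on the array were read, of which 763 were tested and 0 called. Since no list was tested as a set, each is described by counts and its median beside those of all 6435 genes, of which 9.74% had an unadjusted p under 0.05, 4.93% with a higher nicotine mean and 4.82% with a lower one. Over the 763 members the counts were 29 higher (3.80%) and 52 lower (6.82%). List medians ran from −0.18 to 0.15 against 0.01 for all genes, and 7 lists lay over 0.1 from it. In 24 of the 41 lists the median turned sign when 1 of the 12 arrays was left out, so a list median near 0 carries no direction. Of the 7, the median of the 4 nicotinic subunits (0.12) was −0.11 without saline replicate 3 and that of the 4 metabotropic glutamate genes (0.15) was −0.01 without saline replicate 6, so both turned sign on 1 array. With each of the 12 arrays left out in turn, the medians of immediate early genes ran from −0.14 to −0.05 (the nearest to 0 without nicotine replicate 6), of interferon genes from −0.20 to −0.08 (without nicotine replicate 4), of MAP kinase genes from −0.12 to −0.06 (without saline replicate 3) and of glucocorticoid targets from 0.12 to 0.15. The mean score of a list on each array, over its members and relative to the saline mean, overlapped between nicotine and saline in all 41 lists. Of 436 well measured members, 426 (97.7%) were bounded within 0.58. Members named for an unadjusted p under 0.05 were picked after their values were seen, and their adjusted p in limma was 0.337 or more.

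GABA receptor and synthesis genes, which carry inhibition, had 0 of 11 tested members at an unadjusted p under 0.05 and a median of −0.01. Gabrb1 was bounded at 0.25 and the metabotropic receptor Gabbr1 at 0.29, while the lowest, Gabrb2, had −0.36 (−0.83 to 0.11) and the highest, Gabra3, 0.12. Monoamine receptors and enzymes had 0 of 18 at that level, a median of 0.0049, and extremes of 0.34 for Htr1b, a serotonin autoreceptor, and −0.51 for Adra1b, an adrenergic receptor. Of 7 opioid and cannabinoid genes, 2 reached it, and their median of 0.10 turned to −0.05 without nicotine replicate 2. Oprl1, the nociceptin receptor, averaged 779.8 ± 34.3 with nicotine and 633 ± 58.7 with saline (SD, n = 6 each), without overlap (0.30, 0.04 to 0.56). Pdyn, the dynorphin precursor, averaged 567 ± 75.8 with nicotine and 456 ± 91.4 with saline, with overlap (0.32, 0.0044 to 0.63). The lowest of this list was Oprk1, the kappa receptor, at −0.30, and Faah and Mgll, which break down endocannabinoids, were bounded at 0.23 and 0.25.

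Neuropeptides had 17 tested members with a median of 0.09, which was 0.02 without saline replicate 6. Npy, neuropeptide Y, had 5593, 6675 and 7982 (lowest, median and highest) with nicotine and 6222, 6627 and 7255 with saline, and a bound of 0.17. Sst, somatostatin, had 7768, 8847 and 10653 with nicotine and 9251, 10954 and 12067 with saline, a log2 fold change of −0.27 (−0.52 to −0.02). The ranges overlapped for both. Trh, the precursor of thyrotropin-releasing hormone, was the highest at 0.73 (−0.42 to 1.87). Among 15 neurotrophin genes, Ntrk2, the BDNF receptor, averaged 417 ± 61.2 with nicotine and 551 ± 106 with saline (−0.38, −0.68 to −0.08). The extremes there were Gdnf at 0.48 and Erbb4 at −0.42, neither at an unadjusted p under 0.05.

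Immediate early genes, which neurons switch on within minutes of firing, had a median of −0.13 over 22 tested members, 7 of them positive. Their array scores ran from −0.26 to 0.11 on the nicotine arrays and −0.24 to 0.17 on the saline arrays. Gadd45b, a regulator of DNA demethylation, had a lowest, median and highest signal of 410.1, 478 and 873 with nicotine, against 483, 807 and 1225 with saline (−0.61, −1.03 to −0.20). It was the only member with an unadjusted p under 0.05, and its groups overlapped. By a dimmer probe set, Gadd45b had −0.12 ± 0.18 SE. Ptgs2, the inducible cyclooxygenase, was the highest at 0.47. Nptx2 and Btg2 were bounded at 0.19 and 0.22.

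Calcium and cyclic nucleotide signalling had 32 tested members, 2 higher and 2 lower at an unadjusted p under 0.05, and a median of −0.04. The subunits of calcineurin lay on opposite sides: the catalytic Ppp3ca averaged 10905 ± 1334 with nicotine and 8533 ± 918 with saline (0.35), and the regulatory Ppp3r1 22979.7 ± 2963 with nicotine and 26772 ± 2235 with saline (−0.23, SD, n = 6 each). The kinase Camk4 was the lowest at −0.48 (−0.86 to −0.10) and the phosphodiesterase Pde4b the highest at 0.37 (0.06 to 0.68), while Prkcb, a protein kinase C, was bounded at 0.18 and Atp2a2, the calcium pump of the endoplasmic reticulum, at 0.20. Of 16 genes of MAP kinase and PI3 kinase signalling, 2 were lower at that level, the kinases Map2k4 (−0.32) and Mtor (−0.27), and the median was −0.11. Mapk14 and Mapk10 were each bounded at 0.24. Of 25 G-protein genes, Gnb5 (0.25) had the only higher and Gna11 (−0.23) and Gnao1, the abundant neuronal alpha subunit (−0.20), the lower values at an unadjusted p under 0.05, with a median of 0.07.

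Sodium and calcium channels had the lowest median of the 41 lists, −0.18 over 11 tested members. Their array scores ran from −0.31 to 0.04 on the nicotine arrays and −0.14 to 0.13 on the saline arrays, so the groups overlapped. The median rested on few arrays, since it was −0.03 without nicotine replicate 2 and −0.04 without nicotine replicate 1. Scn8a, a sodium channel of axons, averaged 2536 ± 278 with nicotine and 3029 ± 324 with saline (SD, n = 6 each), a log2 fold change of −0.25 (−0.45 to −0.05). Cacna1a, the P/Q-type calcium channel of terminals, averaged 1929.8 ± 212 with nicotine and 2371 ± 383 with saline (−0.28, −0.51 to −0.06). These and the dim Cacna1h, a T-type channel (−0.83, −1.63 to −0.03), were the 3 lower members at an unadjusted p under 0.05, and 0 were higher. The highest, Scn1a, a sodium channel of interneurons, had 2013, 3608 and 3733 (lowest, median and highest) with nicotine and 1473, 2412 and 3368 with saline (0.44), and its lowest nicotine value, from replicate 6, lay far from the rest. Cacna1c and Cacna1b were bounded at 0.22 and 0.28. Potassium channels, with 22 tested members and a median of 0.05, had Kcnd2 (0.64, 0.11 to 1.17) and Kcnc1 (0.67, 0.06 to 1.28) as the higher and the pacemaker channel Hcn2 (−0.21, −0.39 to −0.02) as the lower at that level. The leak channel Kcnk3 was the lowest, at −0.60 (−1.52 to 0.32).

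Genes of the synaptic vesicle and its SNARE machinery had 28 tested members, 1 higher and 3 lower at an unadjusted p under 0.05, and a median of 0.06. The core fusion proteins had tight bounds: Vamp2 had 25389, 28613 and 32846 (lowest, median and highest) with nicotine and 26158, 28579 and 30663 with saline, with a bound of 0.16, and Snap25 a bound of 0.21. A dimmer probe set of Vamp2 lay beyond its bound, at 5827 ± 441 with nicotine and 4942 ± 810.1 with saline (0.25 ± 0.12 SE, SD, n = 6 each). Synaptotagmins lay on both sides, with Syt1, the calcium sensor of fast release, at 0.33 (0.01 to 0.65), Syt5 at −0.22 (−0.37 to −0.07) and Syt11 at −0.36. Syt5 averaged 4389 ± 259 with nicotine and 5112 ± 402 with saline without overlap (SD, n = 6 each). Rab3b, a vesicle GTPase, was the lowest at −0.39, and Doc2b, a calcium sensor of spontaneous release, the highest at 0.42.

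Of 20 postsynaptic and adhesion genes, L1cam (−0.37, −0.59 to −0.14) and Ctnnd2, the neuronal delta-catenin (−0.24), were lower and Nrcam (0.31) was higher at an unadjusted p under 0.05. The adhesion molecule Ncam1 and the adherens protein Ctnnb1 were bounded at 0.18 and 0.20. The neuronal cytoskeleton, with 33 tested members and a median of −0.02, had 3 members each way. Actb, a cytoplasmic actin (0.47), the motor Kif5b (0.45) and Map1b (0.62) were the higher ones. The lower ones were Map2, the microtubule protein of dendrites (−0.50), Dpysl3 (−0.49) and the dynein chain Dync1h1 (−0.21). All 26 well measured members were bounded within 0.58, Tubb3, the neuronal tubulin, at 0.25.

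Markers of cell types are given next. In bulk tissue, fewer cells of a type and less RNA per cell cannot be told apart. Excitatory and layer genes had 16 tested members and a median of −0.06, with Tbr1 the highest at 0.25 (−0.02 to 0.52) and Fezf2, a factor of deep-layer neurons, at −0.22 (−0.45 to −0.0034). Cux1 and Bcl6 were bounded at 0.24 and 0.23. Interneuron genes had 21 tested members and a median of 0.03, with 1 higher and 2 lower at an unadjusted p under 0.05. Kcnc1 was the higher (0.67, 0.06 to 1.28), and Sst (−0.27) and Nos1 were the lower. Pvalb, the parvalbumin of fast-spiking cells, had 6235, 6884 and 7978 (lowest, median and highest) with nicotine and 6191, 6918 and 7969 with saline, and a bound of 0.20. Nos1, the neuronal nitric oxide synthase, had 212, 272 and 434 with nicotine and 363, 442 and 544 with saline (−0.55, −0.91 to −0.19). The groups overlapped for both.

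Astrocyte genes had 0 of 21 tested members at an unadjusted p under 0.05, with fold changes between −0.19 for the glutamate transporter Slc1a2 and 0.22 for Fabp7, and 18 of 18 well measured members were bounded within 0.58. Cst3, a protease inhibitor, and Ndrg2 were each bounded at 0.19 by their brightest probe sets. A dimmer probe set of Ndrg2 lay beyond that bound, at 1687 ± 216 with nicotine and 1326 ± 138 with saline (0.34 ± 0.12 SE, SD, n = 6 each). Reactive astrocyte genes had a median of 0.03 over 15 tested, 8 of them positive. Cp was the highest at 0.40 and S100a4 the lowest at −0.55, with S100a6 at −0.23 and the metallothionein Mt1 bounded at 0.18. Microglial genes had a median of −0.01 over 20 tested, 10 of them positive, with Fcgr3 the lowest at −0.41. Ly86 was the highest at 0.45 (0.07 to 0.82), while Ctss, a lysosomal protease of microglia, had 2584, 3041 and 3379.6 (lowest, median and highest) with nicotine and 2406, 3090.3 and 3348 with saline and a bound of 0.18. Myelin genes had 0 of 14 at that level, a median of 0.09 and bounds of 0.17 for Car2 and 0.19 for Mobp. The 7 tested genes of oligodendrocyte precursors had a median of 0.03, with 5 positive and Pdgfra, a growth factor receptor of these cells, the highest at 0.21. The lowest, Bcan, the proteoglycan brevican, averaged 5927 ± 359.7 with nicotine and 7122 ± 535 with saline without overlap (−0.26, −0.47 to −0.06, SD, n = 6 each). A far dimmer probe set of Bcan had −0.04 ± 0.34 SE.

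Endothelial and vascular genes had 27 tested members and a median of −0.02. The barrier transporters Abcg2 (0.39, 0.09 to 0.69) and Slc2a1, which carries glucose (0.31, 0.06 to 0.55), were higher and the tight-junction protein Cldn5 (−0.22, −0.44 to −0.01) was lower at an unadjusted p under 0.05. Tissue that may come along in dissection was read from lists of its own. The 7 tested blood genes had a median of −0.03 and the 9 of striatum and thalamus 0.09. Both turned sign on 1 array, blood genes to 0.05 without saline replicate 3 and striatum and thalamus to −0.04 without saline replicate 5. The 15 genes of choroid plexus and meninges had −0.04, with array scores of −0.16 to 0.28 on the nicotine arrays and −0.12 to 0.12 on the saline arrays. At an unadjusted p under 0.05, 2 were higher, Aldh1a1 (0.40) and Folr1 (0.77), and 0 lower. Of the 15, 6 were positive, and Fmod was the lowest at −0.31.

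Interferon and antigen presentation genes had a median of −0.14 over 23 tested members, with 1 each way at an unadjusted p under 0.05. Ifitm3, an antiviral membrane protein, averaged 1034 ± 109 with nicotine and 773 ± 105 with saline (0.42, 0.18 to 0.65), and Irf1 had −1.04. Only 3 members were well measured, and the lowest value, of H2-K2 (−1.08, −2.47 to 0.31), comes from a family of near-identical genes whose probes may not tell them apart. Array scores of this list ran from −0.36 to 0.05 on the nicotine arrays and −0.34 to 0.44 on the saline arrays.

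Stress and chaperone genes had 31 tested members, 2 higher and 3 lower at that level, and a median of 0.02. Mitochondrial Hspd1 (0.59, 0.13 to 1.04) and the lectin chaperone Canx (0.36) were the higher, and Pdia6 (−0.48), Pdia4 (−0.50) and Hsp90b1 (−0.13), which fold proteins in the endoplasmic reticulum, the lower. A dimmer probe set of Hspd1 had the opposite sign, −0.21 ± 0.26 SE. The constitutive chaperone Hspa8 was bounded at 0.24. Oxidative stress genes had 1 of 29 at that level, the glutathione transferase Gstm5 (−0.19), and 19 of 19 well measured members within 0.58. Cholesterol synthesis had Fdps, the farnesyl diphosphate synthase (−0.24, −0.41 to −0.06), as the only one of 20 at that level by the brightest probe set, while a dimmer one of Fdps had 0.18 ± 0.11 SE, and bounds of 0.27 for Srebf1 and 0.27 for Sqle.

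Oxidative phosphorylation, the largest list, had 55 tested members. Of these, 9 were lower (against 4.82% of all genes) and 1 higher at an unadjusted p under 0.05, the median was −0.04, and all 45 well measured members were bounded within 0.58. The lower ones were the complex I subunits Ndufv1 (−0.26), Ndufs1 (−0.22), Ndufa9 (−0.27) and Ndufa7 (−0.31), the complex III subunits Uqcrq (−0.16), Uqcrc1 (−0.22) and Uqcrc2 (−0.16), Cox6a2 of complex IV (−0.28) and Atp5c1 of the ATP synthase (−0.19). Ndufv1 averaged 12188 ± 1276 with nicotine and 14623 ± 1741 with saline (SD, n = 6 each). Atp5pb, dim and imprecise, was the higher one (0.75, 0.16 to 1.34). Array scores of the list ran from −0.07 to 0.05 on the nicotine arrays and −0.04 to 0.04 on the saline arrays, so the groups overlapped. Of the 9 lower members, 3 averaged 10000 or more, and among all genes of the brightest of the 4 level groups 8.27% were lower at that level. The part of the level in this count was not tested. The list median lay −0.05 from that of all genes here and −0.02 from it after quantile normalization. Atp5a1 and Cyc1 were bounded at 0.12 and 0.16.

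Glycolysis and the tricarboxylic acid cycle had 33 tested members, 2 each way at that level: Hk1, the hexokinase of brain (0.44, 0.15 to 0.74), and Slc2a1 were higher, and Ldha (−0.15, −0.28 to −0.01) and Aldoa (−0.17, −0.33 to −0.01) lower. Hk1 had 6370.1, 7608 and 8977 (lowest, median and highest) with nicotine and 4684, 5356 and 6799 with saline, and the ranges overlapped. Ribosomal proteins had 25 tested members, a median of −0.05 and 1 higher, Rpl37a (0.33), beside 3 lower, Rplp0 (−0.17), Rps3 (−0.18) and the dim Rps13 (−0.92). Such genes have many pseudogene copies, the first 2 of the lower ones are bright, and the highest value of Rpl37a came from nicotine replicate 6. Proteasome and ubiquitin genes had 38 tested members and a median of 0.03. Psmd14 (0.31) and Psmb4 (0.25) were the higher, and Psmd4 (−0.32), Psme1 (−0.37), Psmd1 (−0.23) and the neuronal Uchl1 (−0.16) the lower at an unadjusted p under 0.05.

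Glucocorticoid targets, genes that stress hormones switch on through their nuclear receptor, had a median of 0.13 over 17 tested members, 13 of them positive. At an unadjusted p under 0.05, 3 were higher and 0 lower. Fkbp5, a cochaperone of that receptor, averaged 2053 ± 288 with nicotine and 1645 ± 156 with saline (SD, n = 6 each), a log2 fold change of 0.31 (0.11 to 0.51). Zbtb16 averaged 3729 ± 674 with nicotine and 2967 ± 543 with saline (0.33, 0.03 to 0.63), and the kinase Sgk1 2194 ± 630.4 with nicotine and 1593 ± 265 with saline (0.41, 0.01 to 0.82). All 3 overlapped between the groups, and the array scores of the list ran from −0.02 to 0.25 on the nicotine arrays and −0.17 to 0.13 on the saline arrays. Hif3a was the highest of the list (0.50, −0.26 to 1.27) and Glul, the glutamine synthetase, the lowest (−0.10). The circadian clock had Tef (−0.35) as the only one of 17 at that level, and Cry1 and Csnk1e were each bounded at 0.27. Cell death and injury genes had 1 of 16, Bcl2l1, which protects cells (0.26, 0.08 to 0.45), and Bcl2 was bounded at 0.23. Cell cycle and neurogenesis genes had 0 of 26 at that level, with Mcm2 the highest at 0.42 and Rrm1 the lowest at −0.40.

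**Figure D5:**
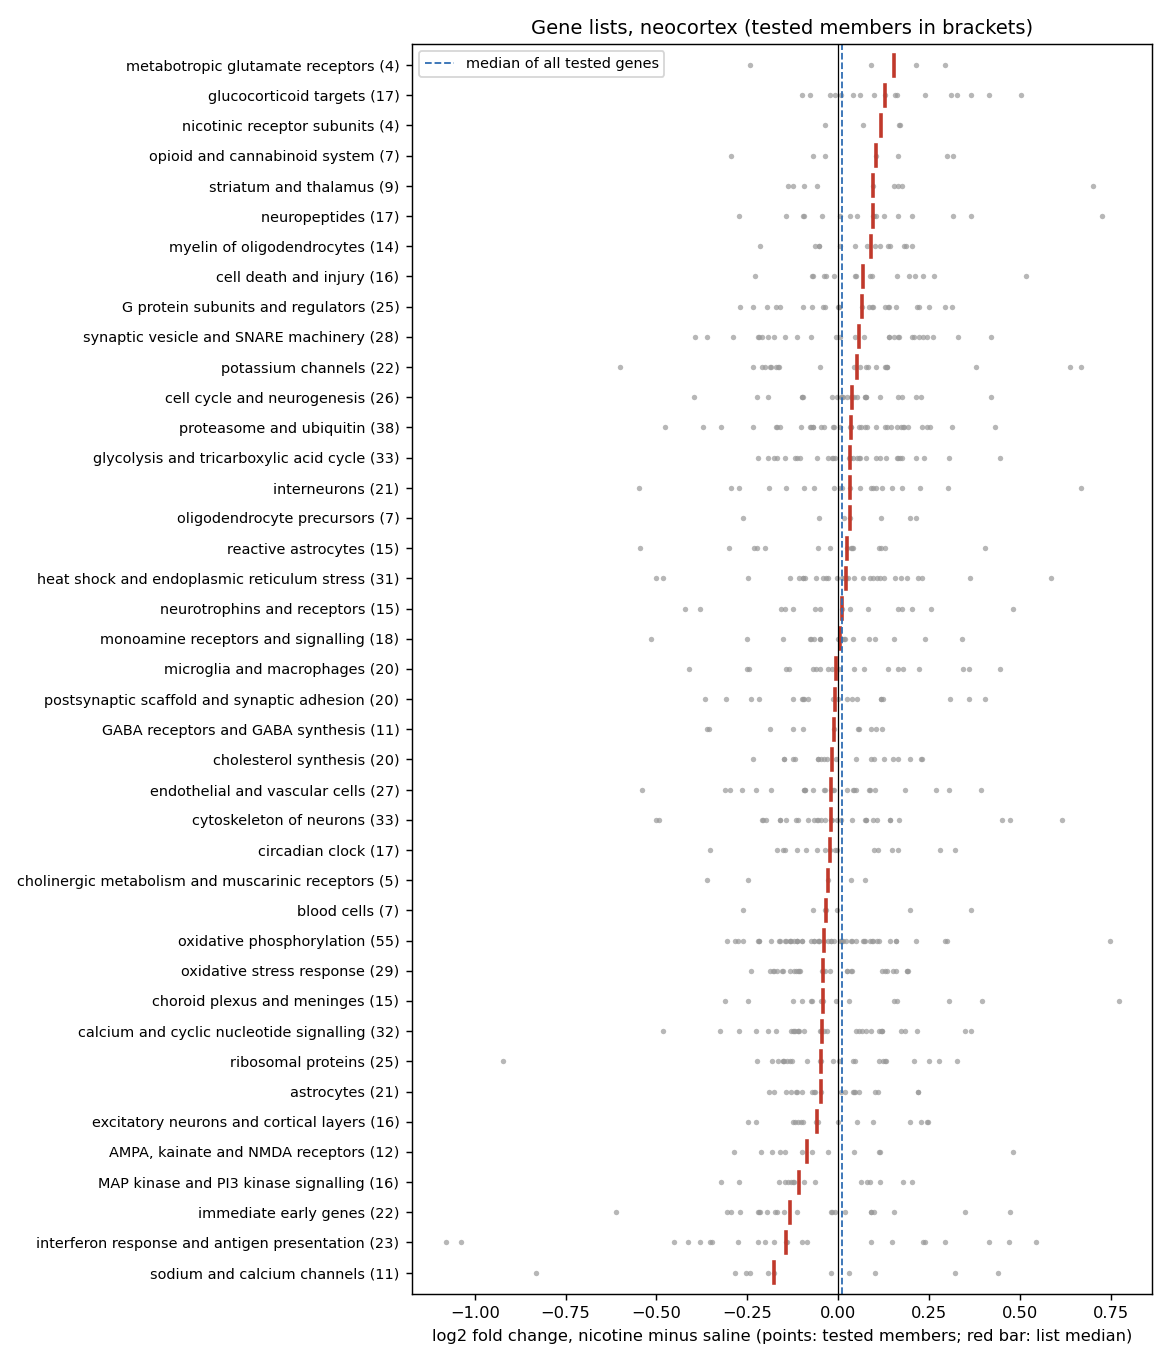
Log2 fold change (nicotine minus saline, horizontal axis) of the tested members of each of 41 gene lists (grey points), with the list median (red bar) and the median of all tested genes (dashed line), 6 arrays a group. The lists run from metabotropic glutamate receptors at 0.15 at the top to sodium and calcium channels at −0.18 at the bottom, and members lie on both sides of 0 in every list.

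The nicotine difference in the neocortex was set against the one in the hippocampus, which rests on other arrays, perhaps of the same mice. The hippocampal comparison had 0 calls (0.00%) of 8695 and 504 probe sets (5.80%) at an unadjusted p under 0.05. The test of whether the difference itself differed between the regions had 0 calls (0.00%) too, with 328 probe sets (3.77%) at an unadjusted p under 0.05. Of the 24 genes of smallest p in the neocortex, 7 of the 12 higher had a positive fold change in the hippocampus. Entpd5, also on the higher side, lay under the filter there. Of the 12 lower, 11 had a negative fold change in the hippocampus, and Dnajc5 had 0.06. The share of all tested probe sets with the same sign in both regions was not counted, so these counts are not read as agreement. Of the 24 genes, 2 had the same sign and an unadjusted p under 0.05 in the hippocampus, Crb3 with 0.55 ± 0.22 SE and Gtf2i with −0.17 ± 0.07 SE.

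Among genes read by their brightest probe set, the smallest p of the regional difference belonged to Serpinh1, Itgax, Sphk2, Mcrs1 and Rcor1. Other probe sets, and those without 1 gene symbol, were left out of this ranking. The adjusted p of these genes in limma was 0.842 or more. Serpinh1 averaged 1052 ± 77.1 in nicotine neocortex and 736 ± 125 in saline neocortex, beside 911 ± 163 in nicotine hippocampus and 1044 ± 157 in saline hippocampus (SD, n = 6 each). The neocortical minus the hippocampal log2 fold change was 0.72 ± 0.18 SE. Itgax, an integrin of myeloid cells, averaged 299 ± 54.3 in nicotine neocortex and 421 ± 133 in saline neocortex, beside 479 ± 95.8 in nicotine hippocampus and 272 ± 137 in saline hippocampus, a difference of −1.34 ± 0.34 SE. Sphk2, whose probe sets disagree in the neocortex, had a difference of 0.72 ± 0.19 SE, Mcrs1 of 0.71 ± 0.19 SE and Rcor1, a corepressor of neuronal genes, of 0.91 ± 0.26 SE. For Serpinh1, Sphk2, Mcrs1 and Rcor1 the neocortical fold change was positive and the hippocampal one negative, and for Itgax the reverse held.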

How the data were processed

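RNA of 34 arrays, 1 per region and mouse, was measured. The authors deposited signal intensities on a linear scale made with MAS5, per the submitters' processing notes (version not given in the sources used here). MAS5 summarises matched and mismatched probes and rescales every array, so values are relative to the array's mean. Detection calls were not used. Groups came from the titles.

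Of 12488 probe sets, 66 control probe sets were dropped, leaving 12422, of which 10833 had 1 gene symbol, 396 several and 1193 none in the platform annotation. Those with a mean log2(signal + 16) under the 30th percentile were not tested. In R 4.3.3, limma 3.58.1 (lmFit, trended eBayes) was fitted on 17 neocortical arrays sharing 1 spread, with Benjamini-Hochberg adjustment and a call at an adjusted p under 0.05. The regional difference used all 34 arrays, taken as independent. Every p-value reflects variation between mice within a group. The brightest probe set stands for a gene. The script was tested on simulated data.

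Genes named were the 12 of smallest p in each direction, the highest and lowest of each list, all tested nicotinic and ionotropic glutamate subunits, the 12 tightest bounds overall and 2 per list, and 5 of the regional difference. The members, the lists and the rules were chosen with earlier results of these data known. Replicate numbers were checked for pairing by their deviations from group means: 2 of 6 same-numbered pairs correlated above 0.1. With 6 pairs this check cannot decide, and the labels state no pairing, so the main fit did not use the numbers. Pseudocount, filter, scaling, samples in the fit, weights and blocks were varied. Python 3.11.15 with matplotlib 3.10.9 drew the figures.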

Additional observations from a re-analysis of the deposited data

Results flagged for a closer look

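A sample was marked where it was the highest or lowest of its 6 and its gap to the nearest other sample exceeded Dixon's 95% limit as a share of the group's range. Of 482 groups of 6 looked at, 42 (8.71%) held such a sample, where chance alone marks about 5%. Nicotine replicate 6, one of the arrays that stood apart, held 12 of them. No difference between regions passed its test, and no data outside the comparisons were used.

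Nicotine replicate 1 had the lowest signal of Tnnt1 at 105 (nearest 267), and the highest signal of Gabrb1 at 5665 (nearest 5070.5). Nicotine replicate 2 had the lowest signal of Psmc4 at 71.5 (nearest 155) and Grin2a at 82.9 (nearest 270). Nicotine replicate 3 had the highest signal of Irf1 at 327 (nearest 124). Its mean score over the nicotinic receptor subunits list was 0.45, the highest of the nicotine arrays (nearest 0.11). The mean score of nicotine replicate 4 over the cell death and injury list was −0.0417, the lowest of the nicotine arrays (nearest 0.09). Nicotine replicate 5 had the lowest signal of Fmod at 199.7 (nearest 569), Chrna6 at 44.6 (nearest 225) and Psma7 at 2172 (nearest 2484). Its mean score over the metabotropic glutamate receptors list was −0.0592, the lowest of the nicotine arrays (nearest 0.09). Nicotine replicate 6 had the lowest signal of Rhob at 6359 (nearest 9759.9), Itgav at 3817 (nearest 5666), Scn1a at 2013 (nearest 3469), Cdh11 at 211 (nearest 413), Fth1 at 23062 (nearest 25291) and Kcnk2 at 2797 (nearest 3237), and the highest signal of Pkm at 39824 (nearest 30054), Rpl37a at 12234 (nearest 8779) and Bcl2 at 1472 (nearest 1254). Its mean score over the heat shock and endoplasmic reticulum stress list was −0.18, the lowest of the nicotine arrays (nearest 0.02). Its score on the first principal component was −21.6 (nearest 8.93). Its mean correlation with the other arrays was 0.941 (nearest 0.951).

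Saline replicate 1 had the lowest signal of Dbnl at 1098 (nearest 1780.4) and Rcor1 at 259 (nearest 433), and the highest signal of Fxyd7 at 5062 (nearest 3834) and Map2k4 at 4131 (nearest 2878). Saline replicate 2 had the lowest signal of Adra2c at 858 (nearest 1289.9), and the highest signal of Itgav at 5635 (nearest 3768). Saline replicate 3 had the lowest signal of Dhx36 at 348 (nearest 434) and Chrna6 at 56.2 (nearest 195), and the highest signal of Cryab at 808 (nearest 606). Saline replicate 4 had the lowest signal of Kcnk3 at 37 (nearest 179.7), Tnnt1 at 215 (nearest 274) and Mt1 at 13013 (nearest 14484), and the highest signal of Cry1 at 1853 (nearest 1339.8). Saline replicate 5 had the lowest signal of Psmd2 at 31.3 (nearest 181). Saline replicate 6 had the lowest signal of Gabra3 at 239.5 (nearest 489), Bid at 20.9 (nearest 134), Cacna1b at 1105 (nearest 1472) and Hsph1 at 7348 (nearest 9734), and the highest signal of Bgn at 1697 (nearest 1405).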

How the results depend on the processing

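In all, 25 alternatives were run, of which 1, the fit without the 3 arrays that stand apart, was chosen after seeing the data. The count of calls between nicotine and saline neocortex was 0 in each of them, and so was the count for the regional difference where it was run. The 24 genes of smallest p kept their sign and stayed uncalled in all alternatives in which they were tested, and their smallest adjusted p in limma was 0.0714, from a fit on the 12 nicotine and saline arrays alone. The count at an unadjusted p under 0.05, 835 in the report, ran from 645 (without nicotine replicate 3) to 1222 (without nicotine replicate 6) when 1 array was left out, and from 673 (array clusters by control probe sets as a block) to 1130 (replicate block) otherwise. The count of well measured genes bounded within 0.58 was 2801 of 2892 in the report. With 1 array left out it ran from 2586 of 2722 to 2755 of 2845. Otherwise it ran from 2162 of 2221 (filter at the 50th percentile) to 3161 of 3283 (no filter on level). The number of well measured genes thus moved with the setting as well.

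Leaving out 1 array moved the number of lists over 0.1 from the median of all genes, 7 in the report, to between 5 and 10, and a filter at the 50th percentile gave 4. Of 1025 list medians recomputed, 36 moved by more than the spread between saline arrays, and the cause was not tested. The kainate count of 1 became 2 with quantile normalization, with array weights, with the control clusters as a block and without the 3 arrays that stand apart. It became 3 with the replicate block. Whether the replicate numbers pair the samples cannot be decided by the check made on 6 pairs (3 of 6 correlated best with their own number). The replicate block changed no nicotine call. The number of arrays and the level of a probe set limit the precision, and 0.29 was the median SE in the dimmest of 4 groups of genes.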
